A study of Mus musculus with 6 samples.

Results

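The mRNAs of 36 enzymes of glycolysis, gluconeogenesis and glycogen metabolism were compared between the hearts of mice on a high fat diet (HFD) and on a normal diet (ND). The genes were listed by their place in these pathways, with earlier results of the same hearts known, and were found on the arrays by an exact match of the gene name at probes other than controls. They are 36 of the 36163 gene names on the arrays and are read by 56 of the 55681 probes. Male C57BL/6 mice were fed from 4 weeks of age for 4 months with a chow diet (ND, n = 3) or with a diet that supplied 60% of its kcal as fat (HFD, n = 3). No transgene or drug is named in the labels of these 6 hearts. RNA of each heart was hybridised to 1 Agilent array in 1 colour. The study's methods give 3 hearts per diet, whereas the labels only number the replicates and do not say whether the mice of a diet shared a cage or litter, so each p-value measures the spread between these hearts.

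Glycolysis turns glucose into pyruvate in the cytosol and yields ATP without oxygen, and lactate dehydrogenase interconverts pyruvate and lactate. Gluconeogenesis runs the same path backwards and needs its own enzymes at the steps that glycolysis makes irreversible, among them fructose bisphosphatase, pyruvate carboxylase and phosphoenolpyruvate carboxykinase. Heart muscle draws most of its energy from fatty acids, keeps a store of glycogen, and expresses many of these enzymes as muscle isoforms that differ from those of liver and brain.

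The levels below are log2 intensities relative to the 75th percentile of the array, so that a difference of 1 is a 2-fold difference in brightness. A level belongs to 1 probe, so the level of a probe is not ranked against that of another, and where the levels of 2 probes are subtracted within a heart only the difference between the diets is read. Where a gene had several probes, its brightest tested probe stands for it. Between 49.2% and 53.0% of the probes of an array were well above background, and no spot was saturated. The arrays shared 1 slide. Its row 2 held the ND hearts and HFD 3, and its row 1 held the remaining HFD hearts. With no ND heart in row 1, a fit with the row as a term and a fit within row 2 both set HFD 3 alone against the ND hearts, so they are 1 check and not 2, and the lone heart is assumed to vary like the others. All 8 cardiomyocyte marker genes were measured, their mean level lay between 8.28 and 8.30 in the ND hearts and between 8.09 and 8.37 in the HFD hearts, and 0 of the 8 had a p below 0.05.

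Of the 36 enzyme genes, 35 were tested, with 54 of their 56 probes. The exception was Fbp1, the fructose bisphosphatase of liver and kidney, whose probe was not well above background in any heart. Before adjustment, limma gave 2 of the 35 a p below 0.05 with a higher level in HFD (Fbp2 and Pfkfb3) and 10 with a lower level (Pcx, Hk2, Pfkp, Tpi1, Pfkfb2, Pgam2, Eno3, Gys1, Pygl and Phka1). Over all 27590 probes tested, 5.37% were higher and 6.36% lower at that limit, which is the one the study's methods give for 2 groups. After Benjamini-Hochberg adjustment over all 27590, 0 of the 35 passed, and 4 probes of the whole array did (0.0145%). Of the 35, 25 had a level below that of ND and 10 above it, and the median log2 fold change was −0.13, against −0.005 over all tested probes and −0.01 over the brightest probe of every gene. The HFD hearts lay below all ND hearts for 11 of the 35 and above them for 2, against 10.7% and 8.21% of all tested probes.

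Bright probes as a whole sat slightly low in HFD on this scale, and many of the enzymes are bright. The 2264 probes with a mean level of at least 5 had a median log2 fold change of −0.038, and the 18 enzymes in that range had −0.112. Of those bright probes, 7.99% were lower and 1.68% higher in HFD at a p below 0.05, against 3 and 0 of the 18 enzymes. The 17 enzymes below a level of 5 had a median of −0.173, with 7 lower and 2 higher at that limit. Over all tested probes of any level, 6.36% were lower and 5.37% higher. In bins of 1 below a level of 5, the medians of all tested probes lay between −0.034 and 0.055. In bulk tissue, fewer cells of a type and less RNA per cell cannot be told apart in any of these values.

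**Figure D1:**
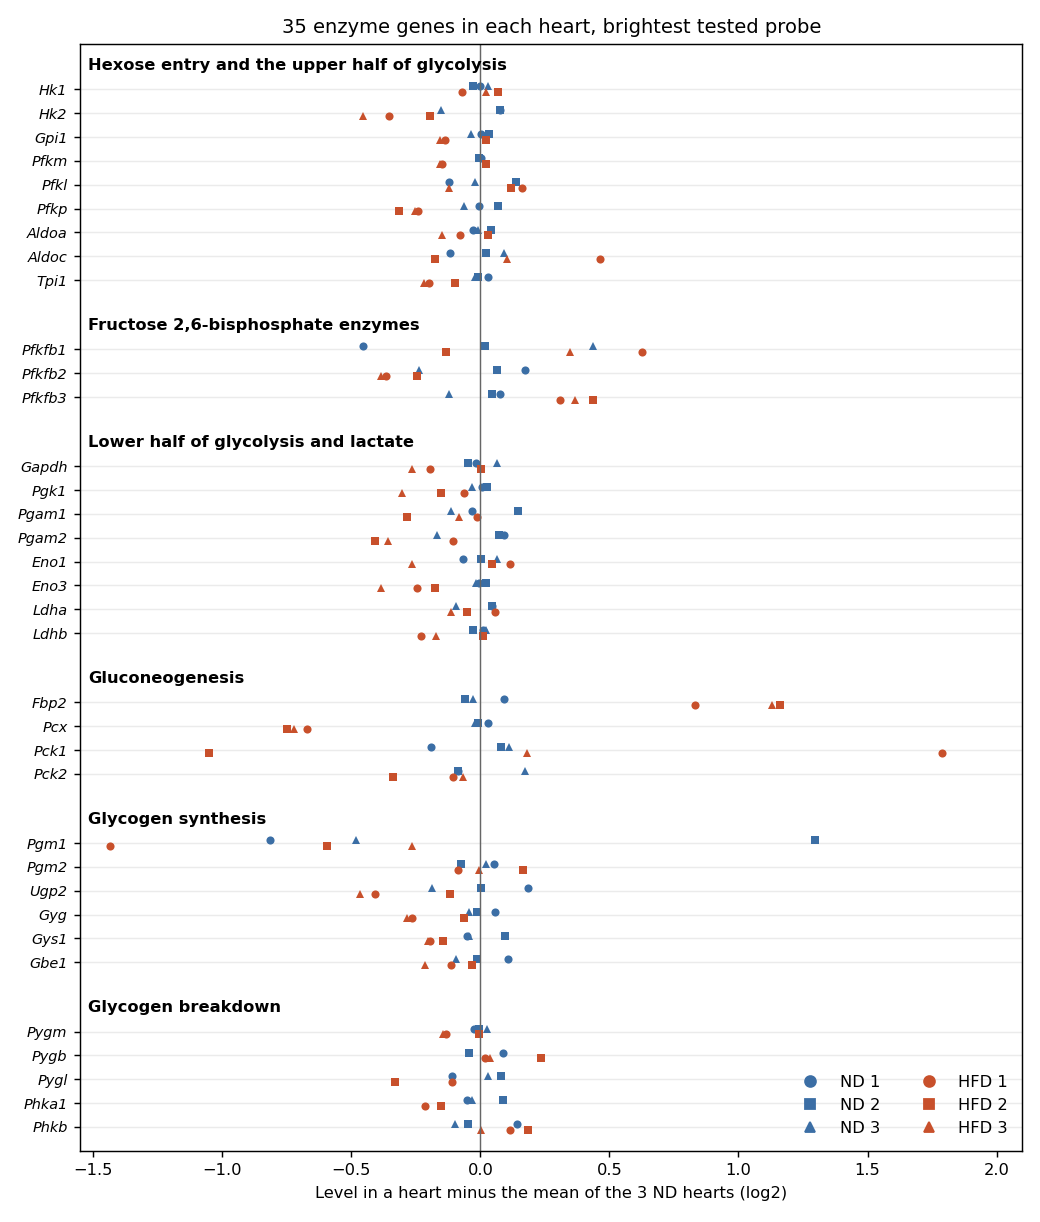
Level of each of the 35 tested enzyme genes in each heart, as the difference from the mean of the 3 ND hearts (x axis, log2 units), with genes grouped by role on the y axis. Each point is 1 heart, blue for ND and orange for HFD, and the shape gives the replicate number. Fbp2 lies to the right and Pcx to the left of all ND hearts in every HFD heart, while most other genes lie within 0.5 of the ND mean.

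Pcx and Fbp2 had the smallest p-values among the 35, and both encode enzymes of the gluconeogenic direction. They lay on opposite sides of ND. Fbp2 encodes the muscle fructose bisphosphatase, which removes a phosphate from fructose bisphosphate and thereby reverses the step of phosphofructokinase. Pcx encodes pyruvate carboxylase, the mitochondrial enzyme that makes oxaloacetate from pyruvate. The Fbp2 probe is printed because its 60 bases match the genome over 4516 bases, so it bridges an intron and reads spliced mRNA. It was designed on NM_007994 and lies on the minus strand of chromosome 13 from 62950852 to 62955367 (mm9).
Fbp2 probe A_51_P499020: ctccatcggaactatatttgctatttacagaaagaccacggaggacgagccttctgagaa

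Fbp2 stood at 1.45, 1.30 and 1.33 in ND 1, ND 2 and ND 3 and at 2.19, 2.52 and 2.49 in HFD 1, HFD 2 and HFD 3. Every HFD heart lay above every ND heart, and the gap between the groups was wider than the range within either. In raw intensity the ND hearts read 1181 to 1323 and the HFD hearts 2336 to 3042. The means were 1.36 ± 0.08 in ND and 2.40 ± 0.18 in HFD (SD, n = 3), a 2.06-fold difference. The log2 fold change was 1.04 (SE 0.11, 95% interval 0.77 to 1.32) with a limma adjusted p = 0.0809. This was the 27th smallest p of the 27590. Fbp2 is also among the genes labelled in the heat map that the study drew from these same hearts, so its choice is not independent of its values. Within row 2, where HFD 3 alone stands for its diet, the difference was 1.14.

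Pcx stood at 3.45, 3.41 and 3.40 in ND 1 to ND 3 and at 2.75, 2.67 and 2.70 in HFD 1 to HFD 3. The hearts of a diet differed by 0.08 at most and the diets did not overlap. The log2 fold change was −0.71 (SE 0.06, 95% interval −0.87 to −0.56, limma adjusted p = 0.0706), so that the level in HFD was 61.0% of that in ND, and its p ranked 10th of the 27590. The probe, A_55_P2008599, was designed on NM_001162946 and lies on chromosome 19 from 4621610 to 4621669 (mm9). Within row 2 the difference of HFD 3 from the ND hearts was −0.72. The adjusted p of Pcx and of Fbp2 fell on either side of 0.05 depending on the setting of the fit, between 0.00906 and 0.343 for Pcx and between 0.0149 and 0.343 for Fbp2.

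The letters CACGTG, an E-box that reads the same on both strands, occur within the 250 bases before a start of both genes. These 2 genes had the smallest p-values, and a window of theirs is printed only where it holds the E-box. Capitals mark the E-box, and the windows run 5′ to 3′ along the gene, from RefSeq on GRCm38.p6. The Fbp2 window is chr13:62858401-62858650 on the minus strand, and the Pcx window is chr19:4510222-4510471 on the plus strand.
Fbp2: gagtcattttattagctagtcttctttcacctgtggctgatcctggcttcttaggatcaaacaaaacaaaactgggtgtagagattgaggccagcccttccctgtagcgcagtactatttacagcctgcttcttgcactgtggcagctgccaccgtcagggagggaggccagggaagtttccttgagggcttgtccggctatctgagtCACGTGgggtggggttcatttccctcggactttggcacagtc
Pcx: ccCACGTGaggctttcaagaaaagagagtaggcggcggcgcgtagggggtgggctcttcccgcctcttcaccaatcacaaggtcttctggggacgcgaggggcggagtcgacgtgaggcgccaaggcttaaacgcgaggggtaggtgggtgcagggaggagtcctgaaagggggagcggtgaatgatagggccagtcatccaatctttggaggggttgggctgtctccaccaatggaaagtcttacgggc
The E-box begins 42 bases before this start of Fbp2 and 248 bases before that of Pcx. It occurs in 6 of the 54 promoter windows of the enzymes (11.1%; Fbp2, Ldha, Pcx, Pfkfb2, Pfkfb3 and Pfkm) and in 1978 of all 32851 windows (6.02%). The shorter core ACGTG, searched on both strands and contained in the E-box, occurs in 20 of the 54 (37.0%) and in 5444 of all windows (16.6%). These are matches of letters and say nothing of binding in these hearts. The genes with an E-box include Fbp2 and Pfkfb3 above ND, Pcx and Pfkfb2 below it, and Ldha and Pfkm, which had adjusted p-values of 0.914 and 0.685.

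The other genes of the gluconeogenic branch were dim. Pck2, the mitochondrial phosphoenolpyruvate carboxykinase, differed by −0.17 (SE 0.11, adjusted p = 0.617). Pck1, the cytosolic enzyme of liver and fat, stood at −2.77, −2.50 and −2.47 in ND, against −0.79, −3.63 and −2.40 in HFD. HFD 1 was the highest and HFD 2 the lowest of the 6 hearts, and the log2 fold change of 0.31 had an SE of 0.68 (95% interval −1.35 to 1.96, adjusted p = 0.899). It was −0.44 without HFD 1. Of the 9 adipocyte markers, 7 were tested, and their mean level was 1.07, 1.68 and 1.78 in ND and 2.11, −0.58 and 1.27 in HFD. Adipoq, the fat hormone adiponectin, stood at −0.36 in HFD 1 and −4.0 in HFD 2, and between −2.44 and −1.21 in the ND hearts. Cfd, Cidec, Retn and Plin1 were also lowest in HFD 2. Between HFD 1 and HFD 2, Fabp4 and Lpl of the same list ran the other way. Both were lowest in HFD 1, at 7.30 and 8.30, and stood at 7.67 and 8.61 in HFD 2. Fabp4 was highest in HFD 2, whereas Lpl in HFD 2 lay just below the ND hearts (8.62 to 8.69). The same 2 hearts were thus the extremes for Pck1 and for the mean of the adipocyte markers, though not for each marker. The part of fat tissue in the Pck1 values was not tested.

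**Figure D2:**
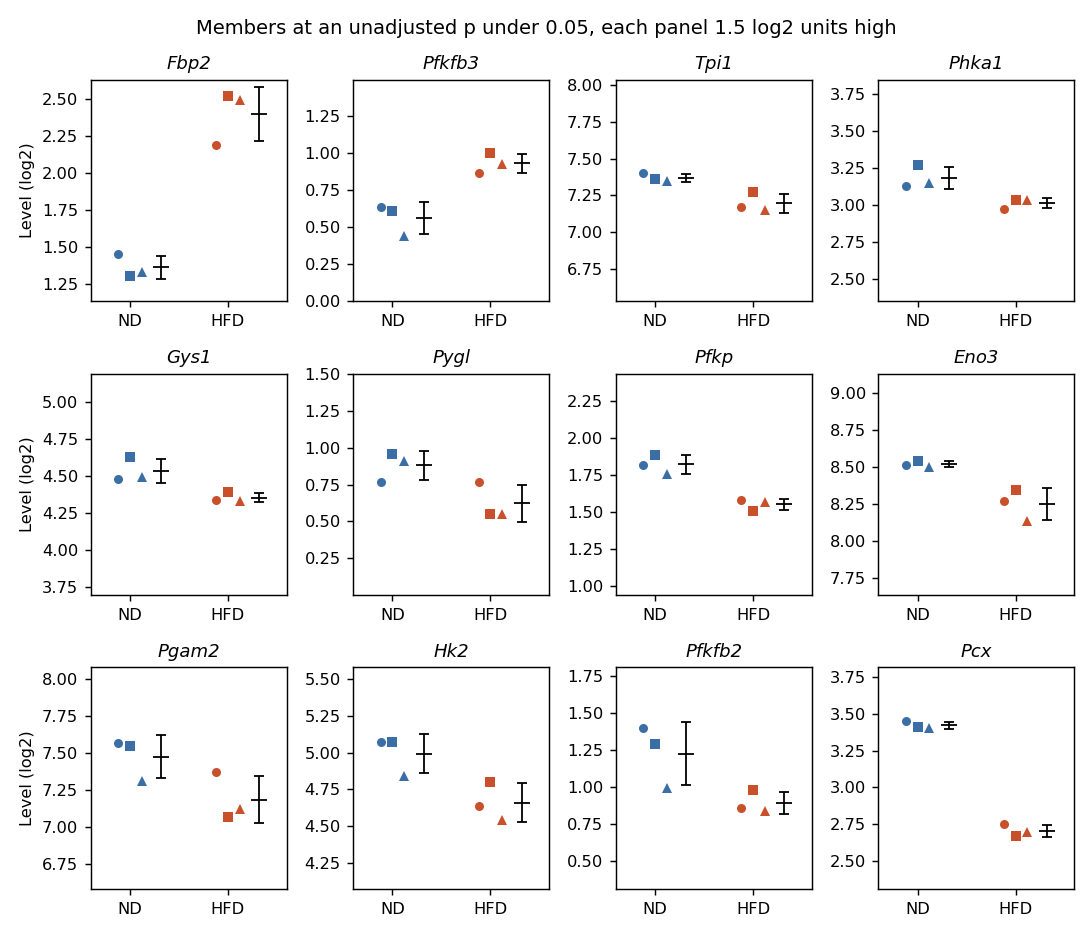
Levels of the 12 enzyme genes with an unadjusted p below 0.05, ordered from the highest to the lowest log2 fold change, in ND (blue) and HFD (orange) hearts. The y axis of each panel is the log2 level of 1 probe and spans 1.5 log2 units, points are hearts with the shape giving the replicate number, and the bar is the mean ± SD of 3 hearts. Fbp2 and Pcx differ by 1.04 and −0.71, and the other lower genes by −0.33 to −0.17.

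Phosphofructokinase is the main point of control in glycolysis, and its activator fructose 2,6-bisphosphate is made and broken down by the bifunctional PFKFB enzymes. The log2 fold changes of the PFKFB mRNAs had both signs. Pfkfb3, an isoform with high kinase activity, stood at 0.64, 0.61 and 0.44 in ND, against 0.87, 1.0 and 0.93 in HFD. All HFD hearts lay above all ND hearts, and the log2 fold change was 0.37 (SE 0.08, limma adjusted p = 0.244). A further Pfkfb3 probe, on NM_133232, was well above background in only 1 heart (HFD 3) and was not tested. Pfkfb2, the main heart isoform, stood at 1.40, 1.29 and 0.99 in ND, against 0.86, 0.98 and 0.84 in HFD. The HFD hearts lay below the ND hearts, but only by 0.01 between HFD 2 and ND 3, and the log2 fold change was −0.33 (SE 0.12, limma adjusted p = 0.383).

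Pfkfb1, an isoform known from liver and skeletal muscle, had no such order and ranged from 1.90 to 2.79 in ND and from 2.22 to 2.98 in HFD. Its log2 fold change was 0.28 (SE 0.28, adjusted p = 0.755). The atrial muscle markers also ran widely, with 5 of 6 tested and a mean level of 4.19, 5.39 and 6.85 in ND and of 7.32, 0.93 and 6.29 in HFD. Sln, the atrial sarcolipin, stood at −2.14 in HFD 2 and at 3.45 to 7.47 in the other 5 hearts. Pfkfb1 was lowest in ND 1 at 1.90, next in HFD 2 at 2.22, and highest in HFD 1 at 2.98, and the part of atrial tissue in these values was not tested.

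The phosphofructokinase genes Pfkm, Pfkl and Pfkp encode the enzyme of the committed step itself. Pfkm, the muscle form, stood at 7.71, 7.70 and 7.71 in ND, against 7.56, 7.73 and 7.55 in HFD, with HFD 2 just above the ND hearts (log2 fold change −0.09, SE 0.08, adjusted p = 0.685). Pfkl, the liver form, had a log2 fold change of 0.05 (SE 0.11). Pfkp, the platelet form, stood at 1.82, 1.89 and 1.76 in ND, against 1.58, 1.51 and 1.57 in HFD, without overlap (−0.27, SE 0.07, limma adjusted p = 0.268). A dimmer Pfkp probe gave −0.21 (SE 0.11, adjusted p = 0.518).

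Glucose is trapped in the cell by hexokinase. Hk2, the insulin-regulated form of muscle, stood at 5.07, 5.07 and 4.84 in ND, against 4.64, 4.80 and 4.54 in HFD. Its groups did not overlap, and the log2 fold change was −0.33 (SE 0.11, limma adjusted p = 0.336), or −0.45 within slide row 2. Hk1, the widely expressed form, differed by 0.01 (SE 0.07) at its brightest probe and by −0.17 (without overlap) and −0.04 at the others. Of the other enzymes of the upper steps of glycolysis, Tpi1 (triose phosphate isomerase) stood at 7.40, 7.36 and 7.35 in ND, against 7.17, 7.27 and 7.15 in HFD. Its log2 fold change was −0.17 (SE 0.07, limma adjusted p = 0.412), and a dimmer probe of the gene gave −0.10 (SE 0.07). Gpi1 (glucose phosphate isomerase, 3 probes) gave −0.11 to −0.09, Aldoa (muscle aldolase) −0.07 and Aldoc (brain aldolase) 0.13, all with overlapping groups.

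Gapdh, glyceraldehyde phosphate dehydrogenase, is both an enzyme of the lower steps of glycolysis and the reference for the RT-PCR and western blots of the study. All 8 Gapdh probes read lower in HFD, with log2 fold changes from −0.26 to −0.09 and a median of −0.181. Limma gave 3 of the 8 a p below 0.05 (A_55_P2037425, A_55_P2088912 and A_55_P1994258), none passed the adjustment (adjusted p from 0.384 to 0.744), and the HFD hearts lay below all ND hearts at 6 of the 8. All 8 are bright, with mean levels from 6.23 to 9.01, and bright probes as a whole sat low in HFD. Of the 2264 probes with a level of at least 5, 1521 had a negative log2 fold change and 375 were lower without overlap. At a limma p below 0.05, 7.99% of them were lower. Averaged over the 8 probes, Gapdh stood at 8.15, 8.21 and 8.13 in ND, against 8.04, 8.06 and 7.85 in HFD. The average was 8.16 ± 0.04 in ND and 7.98 ± 0.11 in HFD (SD, n = 3), and HFD 3 was the lowest heart at every probe. The difference of the average was −0.18 (limma adjusted p = 0.458), and it rests on 3 hearts a diet however many probes are averaged. The size of the Gapdh difference depended on the processing. With quantile normalization the 8 probes gave −0.19 to −0.01, and none of them had a limma p below 0.05. With array weights they gave −0.34 to −0.15, so the sign held in both fits.

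The 8 probes are not 8 independent views of the gene. A_55_P2186027 and A_55_P2097548 share a run of 30 bases, and A_55_P2081133 shares 18 bases with each of them. The files place A_55_P2037425 on chromosome 8 and A_55_P2097548 on chromosome 7, while the other 6 lie on chromosome 6, where RefSeq has the gene. The probe on chromosome 8 gave the largest difference of the 8 (−0.26, 95% interval −0.49 to −0.03) and the probe on chromosome 7 the smallest (−0.09, −0.30 to 0.12). The 3 probes printed here lie apart from each other on the minus strand of chromosome 6 (mm9) and share no run longer than 7 bases, so they read separate stretches of the transcript NM_008084.
A_55_P1994258, chr6:125113312-125113371: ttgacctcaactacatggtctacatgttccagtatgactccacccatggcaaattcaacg
A_55_P1965725, chr6:125113229-125113288: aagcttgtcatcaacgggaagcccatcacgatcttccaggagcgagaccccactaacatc
A_55_P2088912, chr6:125112979-125113038: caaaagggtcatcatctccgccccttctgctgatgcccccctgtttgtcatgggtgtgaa
These 3 gave log2 fold changes of −0.23 (SE 0.08), −0.21 (SE 0.09) and −0.20 (SE 0.07), in that order, each without overlap between the diets. Other probes on chromosome 6 also share no run longer than 7 bases with these 3. A_55_P1984284, A_55_P2186027 and A_55_P2081133 gave smaller differences of −0.16, −0.15 and −0.12 (SE 0.09 each), with overlapping groups at A_55_P2186027.

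**Figure D3:**
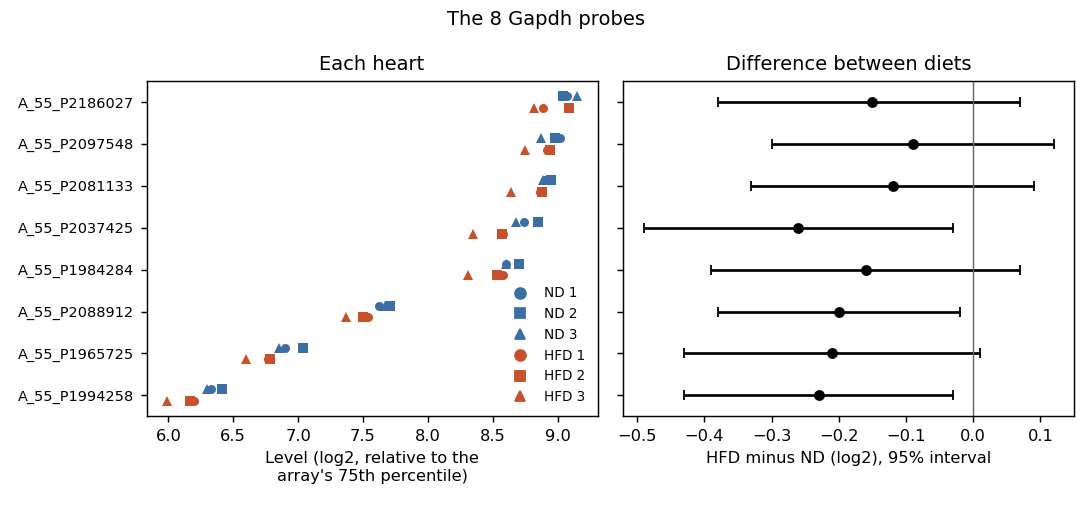
The 8 Gapdh probes, ordered by mean level. The left panel gives the log2 level of each heart (blue ND, orange HFD) and the right panel the log2 difference between HFD and ND with its 95% interval from limma. All 8 differences lie below 0, between −0.26 and −0.09, and the intervals of 3 probes exclude 0.

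Other genes used as RT-PCR references were listed for comparison, with Gapdh and Pgk1 among them. Of the 16, 15 were tested, with a median log2 fold change of −0.028, 1 higher (Ywhaz, 0.28, SE 0.07, limma adjusted p = 0.248) and 0 lower at a p below 0.05. Hprt gave −0.01 (SE 0.07), Rplp0 −0.01 (SE 0.09) and Ppia −0.07 (SE 0.09). Gusb gave −0.20 (SE 0.08) without overlap and Actb 0.18 (SE 0.12) with overlap, and the 15 ran from −0.20 to 0.28. These levels are no measure of a reference on a scale without the 75th percentile. Set against Gapdh within each heart, Fbp2 differed between the diets by 1.20, with no overlap between the 3 ND and 3 HFD hearts (two-sided exact permutation p = 0.10, the smallest that 3 hearts against 3 allow). Fbp2 alone already separated the diets by 1.04, so this is no separate result.

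In the remaining lower steps, 1 gene without overlap (Eno3) and 1 with overlap (Pgam2) had a p below 0.05, both muscle isoforms. Eno3, the muscle enolase, stood at 8.51, 8.54 and 8.5 in ND, against 8.27, 8.34 and 8.13 in HFD. The ND hearts lay within 0.04 of each other and above all HFD hearts, and the log2 fold change was −0.27 (SE 0.08, limma adjusted p = 0.305), or −0.39 within slide row 2. Eno1, the widespread enolase, ranged from 5.53 to 5.66 in ND and from 5.33 to 5.71 in HFD, with a log2 fold change of −0.04 (SE 0.12). Pgam2, the muscle phosphoglycerate mutase, stood at 7.57, 7.55 and 7.31 in ND, against 7.37, 7.07 and 7.12 in HFD. Here HFD 1 lay above ND 3, so the groups overlapped (−0.29, SE 0.12, limma adjusted p = 0.422), and Pgam1, the brain form, gave −0.13 (SE 0.11). Pgk1 (phosphoglycerate kinase) gave −0.17 (SE 0.08, adjusted p = 0.485) without overlap, at a probe that the files place on chromosome 3 although RefSeq has the gene on chromosome X.

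Lactate dehydrogenase is built from the subunits of Ldha, the main form of skeletal muscle, and Ldhb, the main form of heart. Neither differed beyond the spread of the hearts. Ldhb stood at 8.42, 8.38 and 8.43 in ND, against 8.18, 8.42 and 8.24 in HFD, with HFD 2 at the level of ND (−0.13, SE 0.08, adjusted p = 0.605, 95% interval −0.34 to 0.07). The 3 Ldha probes gave −0.03, 0.04 and 0.00, with an SE of 0.08 to 0.09 each.

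Differences between isoforms were tested directly, as the difference of 2 enzymes within each heart. Of 13 pairs, 7 did not overlap between the diets (exact permutation p = 0.10, adjusted 0.186, where 0.10 is the smallest p possible). A pair without any difference would separate with a probability of 0.10, and some pairs share a gene. Eno3 minus Eno1 was 2.98, 2.95 and 2.84 in ND and 2.56, 2.70 and 2.80 in HFD, a difference of −0.23 between the diets. Hk2 minus Hk1 differed by −0.34, Pgam2 minus Pgam1 by −0.16, Pfkp minus Pfkm by −0.18 and Pygm minus Pygb by −0.19. The other 2 were Fbp2 minus Gapdh and Fbp2 minus Pfkm, the bisphosphatase against the kinase that opposes it, which stood at −6.35 ± 0.08 in ND and −5.21 ± 0.16 in HFD (SD, n = 3), a difference of 1.14. Since Fbp2 alone separated the diets, these 2 pairs add no separate result. Hk2, Pfkp and Eno3 also separated the diets alone, so their pairs are no separate result either. The gap was narrow for Pgam2 minus Pgam1, at 1.82 in ND 2 against 1.81 in HFD 1. It was also narrow for Pfkp minus Pfkm, at −5.95 in ND 3 against −5.97 in HFD 3. Under the alternatives, the exact permutation p of these narrow pairs and of Eno3 minus Eno1 ran up to 0.3. No difference was found by exact permutation for Ldha minus Ldhb (0.10, p = 0.5), Pfkm minus Pfkl (−0.15, p = 0.3) or Gys1 minus Pygm (−0.09, p = 0.3), nor for Pygl minus Pygb, Aldoa minus Aldoc and Pck1 minus Pck2 (p from 0.2 to 0.7). With 3 hearts a diet, such p-values do not show that a pair moved together.

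**Figure D4:**
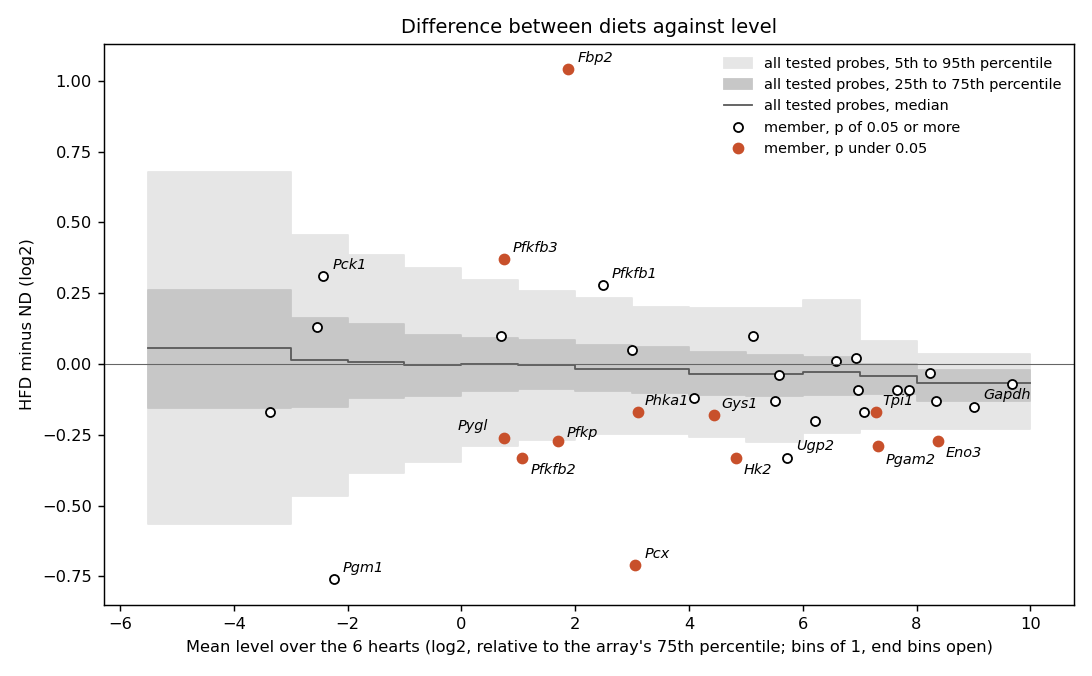
Log2 difference between HFD and ND (y axis) against the mean log2 level over the 6 hearts (x axis) for the 35 enzyme genes. Filled orange points have an unadjusted p below 0.05 and open points do not, and the grey bands give the 5th to 95th and 25th to 75th percentiles of all 27590 tested probes by level. Fbp2 (1.04) and Pcx (−0.71) lie far outside the bands, and the other filled points lie close to the edge of the wider band, on either side of it.

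Glycogen is built from glucose phosphate through phosphoglucomutase, UDP-glucose pyrophosphorylase, glycogenin, glycogen synthase and the branching enzyme. Of these 6 genes, 5 had a negative log2 fold change and 1 (Gys1) had a p below 0.05. Gys1, the muscle glycogen synthase, stood at 4.48, 4.63 and 4.49 in ND, against 4.34, 4.39 and 4.33 in HFD (−0.18, SE 0.07, limma adjusted p = 0.417). Its groups did not overlap, nor did those of a dimmer probe of the gene, which gave −0.14 (SE 0.06). Ugp2, the pyrophosphorylase, overlapped at its brighter probe (−0.33, SE 0.14, adjusted p = 0.432) and not at its dimmer one (−0.38, SE 0.12, adjusted p = 0.319). Gyg (glycogenin) gave −0.20 (SE 0.09) and −0.16 (SE 0.07) at its probes, both without overlap, and Gbe1 (branching enzyme) gave −0.12 (SE 0.09) with overlap.

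The phosphoglucomutase names on this array are not today's. The probe named Pgm1 carries NM_025700, which RefSeq gives to Pgm2, and the probe named Pgm2 carries NM_028132, which RefSeq gives to Pgm1. The bright probe, named Pgm2 on the array, differed by 0.02 (SE 0.09). The dim probe, named Pgm1, stood at −2.67, −0.56 and −2.34 in ND, against −3.29, −2.45 and −2.12 in HFD. ND 2 alone stood above the other 5 hearts, and the log2 fold change of −0.76 (SE 0.61, adjusted p = 0.681) shrank to −0.11 without ND 2.

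Glycogen is broken down by phosphorylase, which phosphorylase kinase switches on. Pygl, the liver phosphorylase, stood at 0.77, 0.96 and 0.91 in ND, against 0.77, 0.55 and 0.55 in HFD (−0.26, SE 0.10, limma adjusted p = 0.388), with HFD 1 and ND 1 equal at this rounding. The muscle form Pygm gave −0.09 (SE 0.07) and the brain form Pygb 0.10 (SE 0.09), and neither had a p below 0.05. Phka1, the muscle regulatory subunit of the kinase, stood at 3.13, 3.27 and 3.15 in ND, against 2.97, 3.03 and 3.03 in HFD, without overlap (−0.17, SE 0.07, limma adjusted p = 0.422). Phkb, another regulatory subunit, gave 0.10 (SE 0.09) and 0.16 (SE 0.18) at its probes.

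Apart from Pcx, the lower enzymes thus differed by little. The 9 genes were between 11.4% and 20.5% lower in HFD, with limma adjusted p from 0.268 to 0.422. At 8 of the 9 the diets did not overlap, where 10.7% of all tested probes were lower without overlap. The 9 were picked by their p, so this count is no separate result. Hk2, Pgam2, Eno3, Gys1 and Phka1 of the 9 are muscle isoforms. Other muscle isoforms among the 35, namely Pfkm, Pygm, Aldoa and Ldha, gave −0.09 to −0.03 at their brightest probes and had no p below 0.05, and Fbp2 lay above ND. Of 14 skeletal muscle markers 9 were tested, of which 5 were lower in HFD at a p below 0.05 and none higher, and their mean level ran from 2.26 to 2.55 in ND and from 1.96 to 2.17 in HFD. The median log2 fold change of the 9 was −0.442. They ran from −1.01 (SE 0.21) for Tnnc2, the fast troponin C, to 0.58 (SE 0.25, adjusted p = 0.456) for Myh7, the slow myosin that ventricles can also express, with Atp2a1, the calcium pump of fast fibres, at −0.01 (SE 0.08). The fast myosin genes Myh1, Myh2 and Myh4, which define fast skeletal fibres, were well above background in 1, 2 and 1 of the 6 hearts and were not tested. The part of skeletal muscle type transcripts in the enzyme values was not tested.

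The number of lower enzymes depended on single hearts. It was 4 without ND 1, 2 without ND 2, 7 without ND 3, 6 without HFD 1, 10 without HFD 2 and 3 without HFD 3. The number of higher enzymes was 2 in each of these fits. Among the HFD hearts, HFD 2 held the highest level of the 3 for 20 of the 35 enzymes and HFD 3 the lowest for 19. These are 57.1% and 54.3% of the enzymes, against 47.8% and 31.4% of all tested probes and 74.6% and 39.8% of the bright ones. Over the 18 bright enzymes, the median difference from the ND mean was −0.12 in HFD 1, 0.00 in HFD 2 and −0.17 in HFD 3, where the 2264 bright probes gave −0.09, 0.04 and −0.07.

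**Figure D5:**
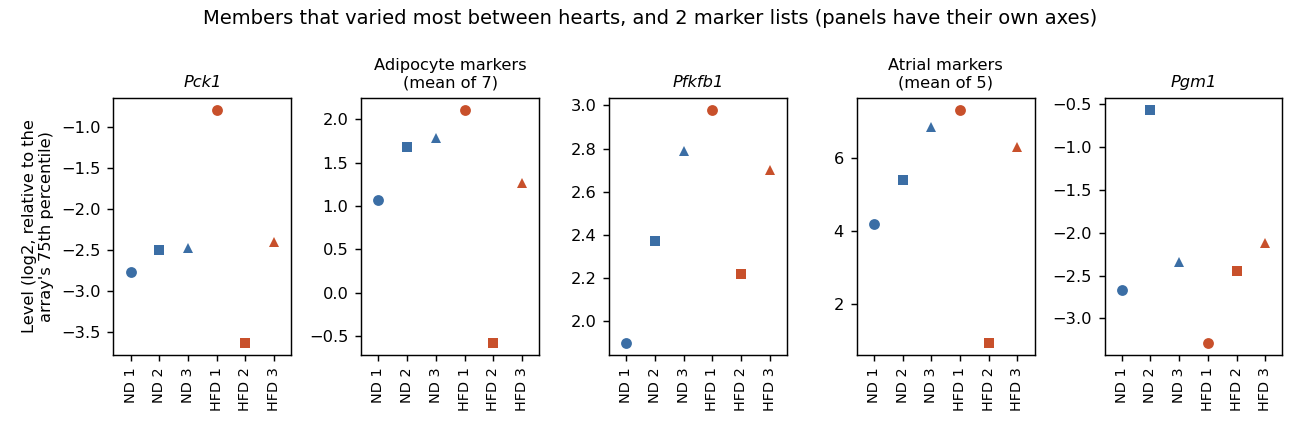
Levels in each heart (log2, relative to the 75th percentile of the array) of Pck1, Pfkfb1 and Pgm1 and the mean levels of 7 adipocyte and 5 atrial muscle markers. Each panel has its own y axis, and blue is ND and orange HFD. HFD 1 is highest and HFD 2 lowest for Pck1 and both marker lists, while for Pgm1 it is ND 2 that stands apart.

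Further genes of the same pathways, listed beside the 36, gave 28 tested of 34, with a median log2 fold change of −0.028, 0 higher and 6 lower at a p below 0.05. Pfkfb4, a further PFKFB isoform, gave −0.35 (SE 0.09), and Ppp1r3a, the muscle subunit that brings a phosphatase to glycogen, gave −0.30 (SE 0.07). Phkg2, a catalytic subunit of phosphorylase kinase, gave −0.22 (SE 0.07). Bpgm, the mutase of red cells that makes 2,3-bisphosphoglycerate, gave −0.28 (SE 0.12), and the diets did not overlap for any of these 4. Of 10 erythroid markers 8 were tested and 6 were lower in HFD, with a mean level from 3.62 to 4.24 in ND and from 2.92 to 3.28 in HFD, and the part of red cells in the Bpgm value was not tested. Pyruvate kinase, named Pkm2 on the array, gave −0.07 (SE 0.08).

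Both side branches of glycolysis showed little. All 11 genes of the pentose phosphate pathway were tested, with a median log2 fold change at −0.023, and 1 (Prps2, a ribose phosphate pyrophosphokinase, 0.20, SE 0.07, limma adjusted p = 0.385) was higher and 0 were lower at a p below 0.05. The 6 genes of the hexosamine pathway, which feeds protein O-GlcNAc modification, had 0 in either direction and a median of 0.082. Among 13 hypoxia response genes outside glycolysis, all tested, 0 were higher and 1 was lower (Ankrd37, −0.66), with a median of 0.023.

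The other lists were run to see which signals of further cells or states moved with the diet. Of 13 immediate early genes, which cells switch on rapidly after a stimulus, 11 were tested, 7 were higher and 0 lower in HFD at a p below 0.05, and the median log2 fold change was 0.949. Their mean level was 0.04, 0.26 and −0.50 in ND and 1.5, 1.49 and 0.60 in HFD, so that every HFD heart lay above every ND heart. Of 13 circadian genes 12 were tested, with 0 higher, 4 lower and a median of −0.21. The part of either list in the enzyme values was not tested. Of the 7 endothelial markers 2 were lower and 0 higher (median 0.027), of the 7 fibroblast markers 1 was lower and 0 higher (−0.042), and of the 7 macrophage markers 0 had a p below 0.05 (−0.132). Of 8 neutrophil markers 4 were tested and 1 was higher (−0.304), and of 8 nerve and glia markers 7 were tested and 1 was lower (0.084). Among the tested adipocyte and atrial markers, 0 had a p below 0.05, with medians of −0.394 and −0.568.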

How the data were processed

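Heart RNA was read on 6 one-colour Agilent arrays (3 ND, 3 HFD). The authors' deposited intensities came from Agilent Feature Extraction (10.7 per the labels), which corrected the background within each array, with no normalization between arrays. A table of log2 values deposited by the authors covers the same arrays. Each column followed its own array (rho of 1 across probes) and lay within a median of 0.00371 of quantile-normalized log2 intensities, and the table served as an alternative. How it was made is not given in the sources used here, and its direction and scale were taken from this match.

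Control spots and outlier spots (127 to 190 per array) were left out, and log2 intensity minus the array's 75th percentile was used. Tests covered the 27590 probes that stood well above background in all hearts of a diet, in limma 3.58.1 under R 4.3.3, two-sided, with Benjamini-Hochberg adjustment over all of them. Isoform pairs were tested by exact permutation. Simulated differences of 1 and 2 on the log2 scale were called in 35 and 47 of 50 probes after adjustment. The enzyme genes, gene lists, tests and alternatives were chosen with earlier results of these data known. Full values were given for Fbp2, Gapdh and every enzyme with an unadjusted p below 0.05. The lists beside the enzymes cover further genes of the pathway, the pentose phosphate and hexosamine pathways, RT-PCR references, hypoxia response genes, immediate early and circadian genes, and markers of cardiomyocytes, atrial and skeletal muscle, adipocytes, erythroid cells, endothelium, fibroblasts, macrophages, neutrophils, and nerve and glia. Single values of 2 further pathway genes are not reported here. Gene names are those of the array. Of the 56 probes, 52 carry accessions that RefSeq gives to the same symbol, 2 to another symbol and 2 had no match in the table used. Positions are on mm9 as the files give them, and exon and UTR positions were not analysed here. Promoters came from RefSeq on GRCm38.p6. Plots used matplotlib 3.10.9 (Python 3.11.15).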

Additional observations from a re-analysis of the deposited data

How the results depend on the processing

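The direction and the side of an adjusted p of 0.05 held for most values under the alternatives, and the median log2 fold change of the enzymes stayed between −0.162 and −0.09. Fbp2 passed the adjustment with normexp background correction (0.99, adjusted p = 0.0270) and under the intensity trend with robust variances (1.04, adjusted p = 0.0149). Over the left-out hearts it lay between 0.99 and 1.15. The number of lower enzymes (10) ran from 2 to 13. It was 13 under the intensity trend with robust variances and with array weights, 12 with normexp background correction, 11 with probes well above background on all 6 arrays, 9 with the authors' log2 table, 8 with quantile normalization and with the methods' t-test, 4 with no filter on dim probes, and 2 to 10 with each heart left out. It was 4 with the slide row as a term and 6 within the slide row that holds both diets, where HFD 3 alone is set against ND and the count is no check of the other HFD hearts. The number of probes past the adjustment on the whole array was 37 with normexp background correction, 80 under the intensity trend with robust variances, 10 with array weights, 2 with the authors' log2 table and 2 with the methods' t-test. It was 0 with no filter on dim probes, with the slide row as a term and within that row (3430, 2108 and 2664 at an unadjusted p below 0.05 in limma), and 0 to 5 with each heart left out. The replicate numbers did not pair the hearts (correlation of same-numbered deviations −0.154, 0.147 and 0.19). With the replicate number as a block, 0 probes passed (3001 unadjusted) and 6 enzymes were lower. Small differences changed sign. Ldha went to 0.04 with quantile normalization and the authors' log2 table, Hk1 to −0.07 over its probes, and Pfkl to −0.02 with array weights and to −0.12 with the row term and within the row. Over the fits that each lacked 1 heart, the difference ran from −0.08 to 0.01 for Ldha, −0.02 to 0.05 for Hk1, −0.01 to 0.14 for Pfkl, −0.04 to 0.08 for Pgm2, −0.11 to 0.08 for Eno1, −0.04 to 0.28 for Aldoc and −0.44 to 0.99 for Pck1, and that of Pck1 minus Pck2 from −0.23 to 1.08. The cause of these shifts was not tested. With 3 hearts per diet, a difference of 0.5 on the log2 scale passed the adjustment for 8 of 50 simulated probes.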
